A study of Mus musculus with 24 samples.

Results

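The comparison described here set running against sedentary mice after 27 days, in RNA that came down with tagged ribosomes from the dentate gyrus. It uses 4 of the 24 libraries of the series, all of them precipitate (IP) libraries of day 27: running libraries e and f and sedentary libraries e and f. They were chosen by their labels for fraction, activity and treatment time, not by any measured value. Running mice were housed one per cage with a turning wheel, and sedentary mice had the same cage with the wheel glued in place. All groups shared the rest of the design: female C57BL6 mice with a tamoxifen-inducible Nestin Cre (Nes-CreERT2) and the RiboTag allele of Rpl22 (RPL22HA/WT), given tamoxifen at 9 to 11 weeks of age at 160 mg/kg i.p. on each of 5 days. For context, the 8 IP libraries of days 11 and 18 and the 4 input libraries of day 27 (dentate gyrus RNA without precipitation) were set beside them, with 2 libraries in every group. Neither the number of mice behind a library nor whether libraries e and f of a group came from different mice is stated in the labels. Each p-value therefore measures only how far these samples spread, and that spread may be technical.

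The dentate gyrus adds granule neurons to the hippocampus throughout adult life, and voluntary running is well known for raising the number of such newborn cells in mice. Neural stem cells with a radial process and Nestin filaments divide into progenitors and neuroblasts, which become immature neurons that express doublecortin (Dcx) and calretinin (Calb2), grow an axon and dendrites, and later switch to calbindin (Calb1) as they mature. In RiboTag mice, Cre puts a haemagglutinin tag on the ribosomal protein Rpl22, and the tag stays in every recombined cell and its descendants. Nestin Cre recombines stem cells, so an IP assigned by the labels to immature neurons can also hold RNA of stem cells, of astrocytes that descend from them and of neurons that have matured since tamoxifen.

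Values are TPM, which share out a fixed total per library after correction for transcript length, and the deposited table keeps no read depth. In the IP libraries of days 11 and 18, the immature neuron gene Dcx was 7.94-fold and the stem cell filament gene Vim 5.22-fold above the input, so the label's cell type was present together with markers of its precursors. The astrocyte filament gene Gfap was 1.55-fold above the input, while Mbp, a myelin gene of oligodendrocytes, was 0.541 times and Calb1 0.464 times the input level. Rpl22, the tagged gene, stood at 136.69 and 103.09 TPM in running libraries e and f, against 123.3 and 117.56 TPM in the sedentary libraries, and the groups overlapped. The gene-level TPM of Rpl22 does not tell the tagged from the untagged transcript. Xist, which silences an X chromosome in female cells, was at 343.08 and 566.44 TPM in the running libraries and at 458.97 and 680.13 TPM in the sedentary libraries, again overlapping.

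A background that dentate cells are not known to express differed between the groups before any gene of interest is considered. Olfactory receptor genes, which belong to the nose, averaged 1.17 and 1.33 TPM over 1102 genes in running libraries e and f, against 1.93 and 2.05 TPM in sedentary libraries e and f. The sedentary libraries of day 27 also lay above all 8 IP libraries of days 11 and 18, which ranged from 0.565 to 1.40 TPM. In the input of day 27 the order was turned round, with 3.07 and 3.66 TPM in running libraries and 1.99 and 1.74 TPM in sedentary libraries. Of the 195 olfactory receptor genes with enough signal to test, 3 were higher and 93 lower without overlap in the running IP libraries. The part of this background in the differences below was not tested. Values from a fit that carries its level as a covariate are given beside a number of the results. In that fit the slope comes only from differences between the 2 libraries of a group. These were widest at day 11, at 0.709 and 1.40 TPM in running and 0.565 and 1.10 TPM in sedentary libraries. At day 27 the level goes with activity, so the covariate values cannot be read as differences freed of background.

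**Figure D1:**
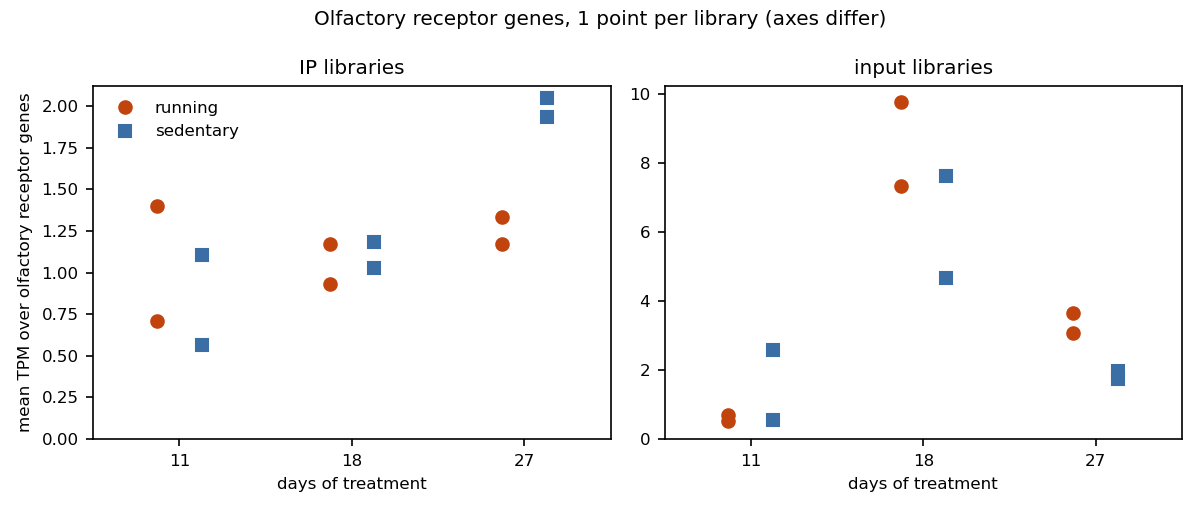
Mean TPM over 1102 olfactory receptor genes in each library, by days of treatment, in the IP (left) and the input (right); running libraries are circles and sedentary libraries squares. At day 27 the IP values are 1.17 and 1.33 TPM in running libraries and 1.93 and 2.05 TPM in sedentary libraries, and the input has the opposite order.

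Across 17282 tested genes, 1 was higher and 4 were lower in running libraries at an adjusted p under 0.05 by limma, which is 0.00579% and 0.0231% of the genes tested. The gene called higher was the microRNA locus Mir326. The genes called lower were the small nucleolar RNA Snora16a, the microRNA locus Mir690 and the gene models Gm13278 and LOC100861615. At an unadjusted p under 0.05 there were 504 genes higher and 1210 lower, where 864 in all would be the share of 5 in 100. An exact permutation test of 2 libraries against 2 cannot give a two-sided p below 0.333, so for every other gene the result is whether the groups overlap, with limma's estimate beside it.

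The sequences of the called small RNAs are shown because 3 of the 5 calls rest on them. The mature microRNAs are from RefSeq (GRCm38.p6), with the seed, bases 2 to 8 from the 5′ end, in capitals. Snora16a is given as its GENCODE M21 transcript of 136 bases, with the ACA box that ends 3 bases before the 3′ end in capitals, a mark of the snoRNA family that guides pseudouridylation.
mmu-miR-326-5p: gGGGGCAGggccuuugugaaggcg
mmu-miR-326-3p: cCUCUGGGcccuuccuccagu
mmu-miR-690: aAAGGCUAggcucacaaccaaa
Snora16a-201: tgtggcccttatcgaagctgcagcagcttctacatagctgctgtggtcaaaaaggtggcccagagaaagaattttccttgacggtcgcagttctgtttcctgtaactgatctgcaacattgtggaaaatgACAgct
The seeds of miR-326 and miR-690 are different, so they do not form a seed family. The table has 1 value per locus and does not separate the mature arms, which the total RNA kit of the labels was not designed to capture.

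Snora16a (chr4:132309465-132309600, GRCm38, plus strand, exonic in a transcript of the noncoding host gene Snhg12) had a value of 0 in each running library, against 8.80 and 9.36 TPM in sedentary libraries e and f. Its log2 difference was -3.33 with a standard error of 0.26 (limma adjusted p = 1.89e-05). At day 18 it stood at 4.50 and 4.73 TPM in running libraries and 4.16 and 5.18 TPM in sedentary libraries, and at day 11 at 9.05 and 8.62 TPM in running libraries and 18.42 and 18.04 TPM in sedentary libraries, so that it was lower in running libraries at day 11 too and overlapped at day 18. The non-zero IP values lay in steps: 1.00 to 1.25 times, 2.07 to 2.25 times and 4.34 to 4.43 times the smallest one. How many reads 1 step stands for is not recorded in TPM, and a short RNA reaches such a value from few reads. The host Snhg12 was itself lower without overlap, at 25.96 and 24.24 TPM in running libraries and 35.42 and 41.18 TPM in sedentary libraries. In the input of day 27 Snora16a was at 18.23 and 7.47 TPM in running libraries and 26.51 and 3.41 TPM in sedentary libraries, which overlapped.

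Mir326 (chr7:99552269-99552363, plus strand, in an intron of the β-arrestin gene Arrb1 on the same strand) was at 12.03 and 10.39 TPM in the running libraries and listed at 0 in both sedentary libraries. It was listed at 0 in the other 10 IP libraries and in all 12 input libraries. Limma gave a log2 difference of 3.61 with a standard error of 0.42 (adjusted p = 0.00304). Arrb1 had 72.73 and 79.44 TPM in running libraries and 75.22 and 74.8 TPM in sedentary libraries, so the host overlapped between the groups. Mir690 (chr16:28599935-28600043, minus strand, in an intron of Fgf12) showed the opposite, with 0 in each running library against 5.86 and 6.24 TPM in sedentary libraries (log2 difference -2.82, limma adjusted p = 0.0363). It was also listed at 0 in the 8 IP libraries of days 11 and 18 and above 0 in 1 of 12 input libraries.

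Gm13278 (chr4:88791550-88792098, plus strand, annotated as protein coding) had 0 in each running library, against 12.53 and 19.79 TPM in sedentary libraries (limma adjusted p = 0.0234). LOC100861615 was at 8.91 and 9.56 TPM in running libraries and 23.26 and 25.1 TPM in sedentary libraries (log2 difference -1.30, limma adjusted p = 0.0349), and it alone of the 5 was above 0 in all 24 libraries. These 4 loci other than Snora16a were named because they passed the test, after their values were seen. The calls were few and unstable: with the olfactory receptor level as a covariate 1 gene was called higher and 2 lower, with a pseudocount of 0.5 none higher and 1 lower, and in a fit of all 24 libraries none in either direction.

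Without a test, 2995 genes (17.3%) had both running libraries above both sedentary libraries and 4936 (28.6%) had both below. For 2 libraries against 2, a random order would leave a share of 0.333 without overlap, divided evenly between the directions. The higher genes made up 37.8% of those without overlap as deposited and 49.7% after median-of-ratios scaling (4031 higher, 4078 lower). Direction depended on expression level, taken from the IP libraries of days 11 and 18. Of 3815 genes between 1 and 5 TPM, 3.46% were higher and 47.8% lower, with a median log2 difference of -0.41. Of 1887 genes over 100 TPM, 37% were higher and 13.7% lower, with a median of 0.11. The olfactory receptor covariate brought the median of the lower class to -0.14 and left that of the upper class at 0.11. Among the 8493 genes at 20 TPM or more, 29.2% were higher and 15.5% lower, and these shares are the background for the gene groups below wherever well-expressed members are counted.

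**Figure D2:**
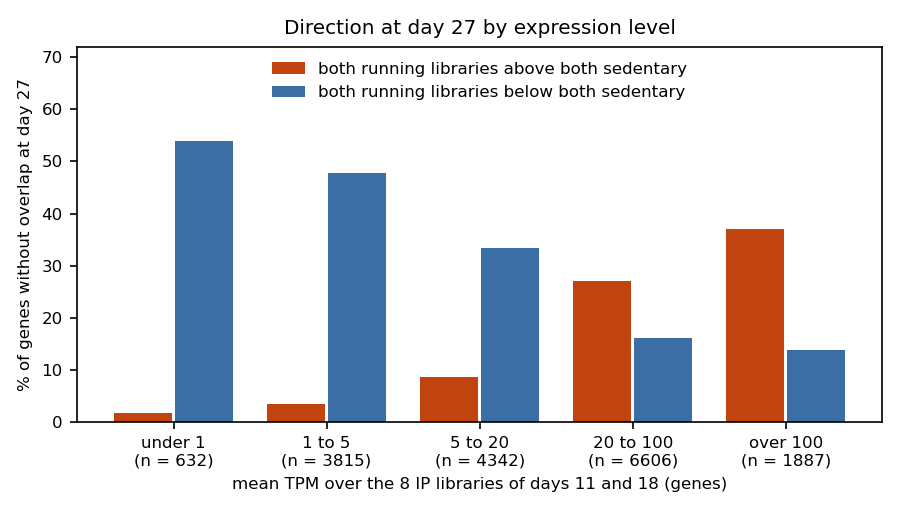
Share of genes (%) whose running IP libraries both lay above, or both below, the sedentary IP libraries of day 27, by mean TPM over the 8 IP libraries of days 11 and 18. The share lower goes down from 54% under 1 TPM to 13.7% over 100 TPM, and the share higher goes up from 1.58% to 37%.

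Among properly named genes without overlap and with at least 5 TPM in the higher group, the 12 with the lowest unadjusted p on the higher side included genes of synapses, ion transport and the cytoskeleton, a pseudogene and members of gene families with close copies. None of them passed adjustment, with adjusted p between 0.0815 and 0.333 by limma. Dsp (chr13:38151294-38198577), which encodes the junction protein desmoplakin and is a known marker of dentate granule neurons, was at 204.83 and 199.31 TPM in running libraries and 133.99 and 116.52 TPM in sedentary libraries. Its log2 difference was 0.69 with a standard error of 0.16. Inf2 (chr12:112588784-112615557), a formin that assembles actin filaments, was at 135.1 and 115.55 TPM in running libraries, against 77.27 and 69.67 TPM in sedentary libraries (log2 difference 0.76). Slc8a2 (chr7:16129826-16161063), a sodium-calcium exchanger of neurons, was at 409.13 and 345.15 TPM in running libraries, against 261.81 and 199.63 TPM in sedentary libraries (log2 difference 0.71). Dlg3 (chrX:100767722-100818410), a scaffold of the postsynaptic density, was at 238.91 and 206.94 TPM in running libraries, against 144.24 and 141.16 TPM in sedentary libraries (log2 difference 0.64). That their groups lie apart was part of how these genes were chosen and is given as a description.

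Further members of that group were Cacnb1, a subunit of voltage-gated calcium channels, and Sv2a, a synaptic vesicle protein. Cacnb1 was at 111.02 and 104.93 TPM in running libraries and 69.12 and 73.25 TPM in sedentary libraries. Sv2a was at 135.91 and 126.32 TPM in running libraries and 91.22 and 87.27 TPM in sedentary libraries. Diras2, a small Ras-like GTPase, Necab3, a calcium-binding protein of neurons, and the zinc finger gene Jazf1 had log2 differences of 0.63, 0.89 and 0.68. With the covariate, these 9 genes had differences between 0.49 and 0.86. In the input of day 27 they had log2 differences between -0.11 and 0.37, none of them called.

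Some of the named genes share sequence with near-identical copies, and their values depend on how reads were divided. Dynlt1b and Dynlt1c, on chromosome 17, encode a light chain of the dynein motor and differed in opposite directions. Dynlt1b was at 46.98 and 25.55 TPM in running libraries and 8.76 and 11.92 TPM in sedentary libraries, while Dynlt1c was at 5.7 and 7.39 TPM in running libraries and 47.01 and 28.69 TPM in sedentary libraries. Their open reading frames of 342 bases, found in the GENCODE M21 transcripts, differ at 1 base, and those of Dynlt1c and Dynlt1f at none. The first 60 coding bases are shown with the mismatch in capitals, because this base is all that parts the reading frames.
Dynlt1b: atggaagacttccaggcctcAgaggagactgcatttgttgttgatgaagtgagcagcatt
Dynlt1c: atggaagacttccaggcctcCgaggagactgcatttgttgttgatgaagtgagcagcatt
Summed over the copies Dynlt1a, Dynlt1b, Dynlt1c and Dynlt1f, the level was 105.87 and 89.88 TPM in running libraries and 103.56 and 102.99 TPM in sedentary libraries, which overlapped. Rps19-ps3, a processed pseudogene of the ribosomal protein gene Rps19, was at 33.53 and 48 TPM in running libraries and 21.67 and 23.35 TPM in sedentary libraries, but together with Rps19 the values overlapped, at 283.94 and 184.07 TPM in running libraries and 277.43 and 228.64 TPM in sedentary libraries. Cxx1b, which has close copies, was at 56.67 and 37.01 TPM in running libraries and 27.99 and 17.88 TPM in sedentary libraries, and the sum with Cxx1a and Cxx1c overlapped between the groups.

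On the lower side, the 12 named genes were Snora16a, Dynlt1c, Ly6i, Ly6c1, Plcd4, Cdrt4, Lgals1, Tcte2, Milr1, S100a10, Renbp and Vcam1, chosen in the same way. Ly6c1 (chr15:75044018-75048830), a surface protein of brain endothelium, was at 3.88 and 5.45 TPM in running libraries and 15.23 and 13.8 TPM in sedentary libraries (log2 difference -1.47, limma adjusted p = 0.130). Its near copy Ly6c2 was listed at 0 in both running libraries and at 4.12 and 0.75 TPM in sedentary libraries. Vcam1 (chr3:116109949-116129688), an adhesion molecule of vessels and of quiescent neural stem cells, was at 12.88 and 14.97 TPM in running libraries and 26.14 and 25.4 TPM in sedentary libraries. S100a10, an annexin partner, was at 28.69 and 23.65 TPM in running libraries and 46.69 and 43.15 TPM in sedentary libraries. Plcd4, a phospholipase C, was at 16.82 and 14.14 TPM in running libraries and 33.98 and 28.19 TPM in sedentary libraries. The galectin Lgals1, the renin-binding protein gene Renbp and the Ly6 family gene Ly6i were all under 8 TPM in each of the 4 libraries.

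Among the lower genes, Milr1 ran the other way in the input. It encodes an immune receptor best known from mast cells and was at 22.6 and 19.27 TPM in the running IP libraries and 51.69 and 46.69 TPM in the sedentary IP libraries, with a log2 difference of -1.20 in the IP and 1.52 in the input. Its IP difference was -0.84 with the olfactory receptor covariate. The IP difference of Cdrt4 was -2.52 as fitted and -1.82 with the covariate, and that of Tcte2 was -1.37 as fitted and -0.92 with the covariate. Across all tested genes, 26% of those higher without overlap in the IP were lower without overlap in the input, and 35.4% of those lower in the IP were higher in the input. The input itself had 20.8% of these genes higher and 19.5% lower without overlap, and none called by limma (lowest adjusted p 0.937, 1079 genes at an unadjusted p under 0.05).

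**Figure D3:**
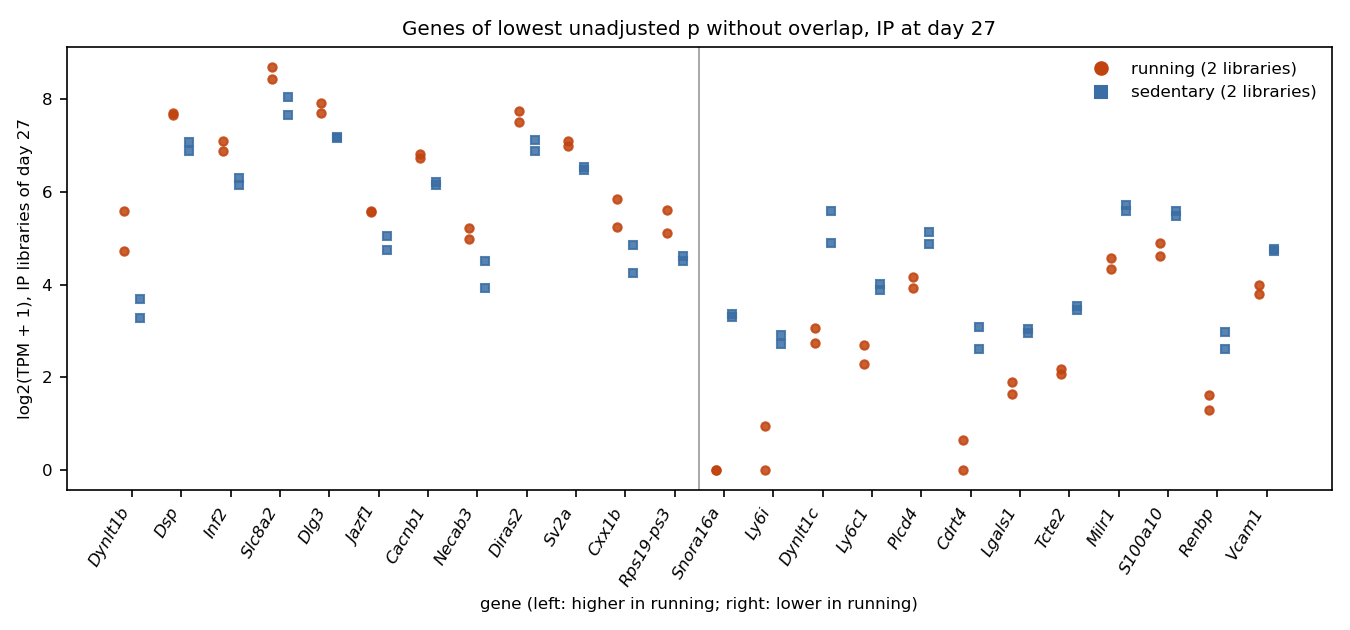
Levels as log2(TPM + 1) of the 12 named genes of lowest unadjusted p in each direction, in running (circles, left of each pair) and sedentary (squares) IP libraries of day 27. In each gene the running points lie apart from the sedentary ones, and Snora16a has 0 TPM in each running library against 8.80 and 9.36 TPM in sedentary libraries.

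Genes of immature neurons were higher in the running libraries as a group, though much of that came from 1 library. Of 30 newborn neuron genes, 18 were higher without overlap and none lower, and none passed adjustment. Their median log2 difference was 0.31, against -0.08 over all tested genes and 0.04 over genes at 20 TPM or more. Among the 26 members at that level, 17 were higher and none lower, where all genes had 29.2% higher and 15.5% lower. Dcx, a microtubule protein of migrating neurons, was at 111.83 and 94.07 TPM in running libraries and 76.98 and 81.42 TPM in sedentary libraries. Bhlhe22, a transcription factor of differentiating neurons, was at 359.6 and 248.66 TPM in running libraries and 198.49 and 184.86 TPM in sedentary libraries. Crmp1, a protein of axon growth, was at 411.39 and 313.64 TPM in running libraries and 253.52 and 238.91 TPM in sedentary libraries. In each of these genes running library e was the highest. Neurod1, a proneural transcription factor, was at 257.44 and 175.33 TPM in running libraries and 180.16 and 168.22 TPM in sedentary libraries and so overlapped.

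Set against the mean of the 8 earlier IP libraries, the median newborn neuron gene stood at a log2 value of 0.11 in running library e and -0.41 in running library f, and at -0.38 and -0.48 in the sedentary libraries. Without running library e the median difference of the list was 0.10, and without running library f it was 0.54. Calb2, the calretinin gene, was at 246.61 and 130.86 TPM in running libraries and 129.64 and 119.49 TPM in sedentary libraries, so that running library f lay barely above the sedentary range, and its log2 difference was 0.53 as fitted and 0.12 with the covariate. Prox1, the transcription factor that fixes granule neuron identity, did not depend on library e in this way, at 557.97 and 534.94 TPM in running libraries and 411.14 and 401.21 TPM in sedentary libraries (log2 difference 0.43, standard error 0.19, unadjusted p = 0.0354 by limma).

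Markers of mature granule neurons were higher in both running libraries alike. Of 28 genes, 18 were higher and 2 lower without overlap, with a median log2 difference of 0.32 and a range of 0.23 to 0.35 when each library was left out in turn. Among the 26 members at 20 TPM or more, 17 were higher and 1 lower, where all genes of that level had 29.2% higher and 15.5% lower. Calb1 was at 158.89 and 163.41 TPM in running libraries and 124.79 and 108.48 TPM in sedentary libraries (log2 difference 0.47). Synpr, a synaptic vesicle protein, was at 174.26 and 133.18 TPM in running libraries and 99.5 and 106.83 TPM in sedentary libraries. Npnt, which encodes the matrix protein nephronectin, was at 72.53 and 61.98 TPM in running libraries and 48.39 and 44.38 TPM in sedentary libraries. Ncald, a neuronal calcium sensor, was at 342.32 and 313.13 TPM in running libraries and 247.22 and 222.99 TPM in sedentary libraries. In running libraries e and f the median member stood at 0.56 and 0.61 above the mean of the earlier days on the log2 scale, against 0.33 and 0.29 in sedentary libraries. With the covariate the median difference was 0.37.

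The cytoskeleton of growing neurites showed the highest share of higher genes among the lists of neuronal function, counted over all tested members. Of 54 microtubule, actin and growth cone genes, 35 were higher and 1 lower without overlap, with a median log2 difference of 0.32. All of these 35 were among the 52 members at 20 TPM or more, where all genes of that level had 29.2% higher and 15.5% lower. Map1b, a microtubule protein of growing axons, was at 1459.58 and 1295.41 TPM in running libraries and 936.86 and 843.28 TPM in sedentary libraries. Tubb4a, a β-tubulin, was at 443.81 and 338.6 TPM in running libraries and 259.51 and 257.4 TPM in sedentary libraries. Ina, a neuronal intermediate filament, was at 125.45 and 113.57 TPM in running libraries and 84.41 and 79.94 TPM in sedentary libraries. Without running library e the median of the list was 0.13, so its size rested in part on that library. Axon guidance genes were more divided, with 23 higher and 13 lower of 59. Among them Plxna4, a semaphorin co-receptor, was at 269.96 and 264.3 TPM in running libraries and 198.44 and 184.5 TPM in sedentary libraries.

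About as many synaptic genes lay without overlap on the higher side as overlapped. Of 38 postsynaptic scaffold and kinase genes, 19 were higher and 2 lower, with a median of 0.17, and of 50 presynaptic genes 24 were higher and 5 lower, with a median of 0.17. Among members at 20 TPM or more, 18 of 35 postsynaptic genes were higher and 2 lower, and 23 of 43 presynaptic genes were higher and 2 lower, where all genes of that level had 29.2% higher and 15.5% lower. Camk2b, a kinase subunit of the postsynaptic density, was at 1038.82 and 886.44 TPM in running libraries and 694.3 and 565.46 TPM in sedentary libraries. Camk2a was at 2291.23 and 2035.65 TPM in running libraries and 1636.37 and 1377.8 TPM in sedentary libraries. Syn1, which tethers synaptic vesicles, was at 415.96 and 358.15 TPM in running libraries and 280.8 and 240.68 TPM in sedentary libraries. Slc17a6, a vesicular glutamate transporter, was low throughout, at 13.42 and 10.94 TPM in running libraries and 4.99 and 6.25 TPM in sedentary libraries.

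Receptors and channels also had more members higher than lower, as did all genes at 20 TPM or more (29.2% higher and 15.5% lower). Of 19 GABA receptor and chloride transporter genes, 10 were higher and 1 lower, with a median of 0.26. Gabbr2, a GABA-B receptor subunit, was at 233.28 and 240.78 TPM in running libraries and 175.6 and 160.76 TPM in sedentary libraries. Slc12a5, the transporter that lowers chloride in maturing neurons, was at 179.93 and 158.05 TPM in running libraries and 128.76 and 114.91 TPM in sedentary libraries. The member that was lower was Gabra3, at 1.97 and 2.65 TPM in running libraries and 4.51 and 4.66 TPM in sedentary libraries. Of 31 glutamate receptor genes, 11 were higher and 2 lower, with a median of 0.02 that was -0.08 without running library f, 0.22 without running library e and 0.21 with the covariate. Grm2, a metabotropic receptor, was at 117.12 and 106.37 TPM in running libraries and 82.83 and 71.2 TPM in sedentary libraries, and Grin1, the obligate NMDA receptor subunit, was at 383.71 and 375.29 TPM in running libraries and 291.19 and 268.08 TPM in sedentary libraries. Of 30 sodium and calcium channel genes, 15 were higher and 2 lower, and of 47 potassium channel genes 15 were higher and 8 lower (median 0.0047). Among members at 20 TPM or more, 10 of 16 GABA list genes and 14 of 24 sodium and calcium channel genes were higher, and none lower. Glutamate receptor and potassium channel genes of that level were closer to all genes, with 9 of 22 and 13 of 33 higher and 1 and 3 lower.

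Genes induced by neuronal activity were divided over all levels, but the well-expressed ones were mostly higher. Of 42, 16 were higher and 7 lower without overlap, and among the 16 members at 20 TPM or more the counts were 11 and 1. Of the 26 members under 20 TPM, 5 were higher and 6 lower. All genes of that level had 29.2% higher and 15.5% lower. Plk2, a kinase induced by synaptic activity, was at 193.68 and 194.59 TPM in running libraries and 135.32 and 134.8 TPM in sedentary libraries. Egr3, an immediate early transcription factor, was at 107.83 and 97.94 TPM in running libraries and 74.78 and 68.24 TPM in sedentary libraries. Rgs4, a regulator of G protein signalling, was at 40.66 and 43.3 TPM in running libraries and 28.28 and 26.08 TPM in sedentary libraries. Growth factors and their receptors leaned to neither side, with 11 higher and 17 lower of 47 (23.4% and 36.2%, next to 17.3% and 28.6% of all tested genes). Bdnf, the neurotrophin most often linked to running, was at 48.17 and 41.48 TPM in running libraries and 33.81 and 29.73 TPM in sedentary libraries (log2 difference 0.48, standard error 0.18, unadjusted p = 0.0186 by limma). Ntf3, another neurotrophin, was at 54.05 and 44.96 TPM in running libraries and 29.69 and 36.66 TPM in sedentary libraries.

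Stem cell and astrocyte genes were lower in the running libraries. Of 22 neural stem cell genes, 16 were lower and none higher without overlap, with a median log2 difference of -0.36, and of 24 astrocyte genes 18 were lower and none higher, with a median of -0.38. These genes were mostly well expressed: among members at 20 TPM or more, 13 of 18 stem cell genes and 18 of 22 astrocyte genes were lower. Of all genes at that level, 15.5% were lower. The stem cell genes summed to 2135 to 2205 TPM in running libraries and 2706 to 3031 TPM in sedentary libraries, and the astrocyte genes to 5226 to 6026 TPM in running libraries and 6763 to 7466 TPM in sedentary libraries. In bulk RNA, fewer cells of a type and less RNA per cell cannot be told apart. With the olfactory receptor covariate the medians were -0.07 for stem cell genes and -0.09 for astrocyte genes.

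Vim, the vimentin gene, was at 99.95 and 93.12 TPM in running libraries and 158.46 and 148.92 TPM in sedentary libraries (log2 difference -0.67, standard error 0.17, and -0.63 with the covariate). Hopx, a marker of quiescent stem cells, was at 140.21 and 121.14 TPM in running libraries and 199.71 and 174.69 TPM in sedentary libraries. Prom1, a membrane protein of stem cells, was at 9 and 9.86 TPM in running libraries and 14.78 and 14.46 TPM in sedentary libraries. Of the astrocyte genes, the gap junction gene Gja1 was at 62.36 and 80.17 TPM in running libraries and 112.51 and 102.89 TPM in sedentary libraries. Mfge8, a secreted protein that aids phagocytosis, was at 200.85 and 218.3 TPM in running libraries and 396.43 and 295.87 TPM in sedentary libraries. The water channel gene Aqp4 was at 43.02 and 54.22 TPM in running libraries and 61.81 and 66.55 TPM in sedentary libraries. Gfap was at 289.04 and 293.26 TPM in running libraries and 419.76 and 370.43 TPM in sedentary libraries, with a log2 difference of -0.44 as fitted and -0.21 with the covariate.

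Progenitor and cell cycle genes were not clearly on one side. Of 17 progenitor and neuroblast genes, 2 were higher and 5 lower, and of 34 cell cycle genes 4 were higher and 9 lower, next to 17.3% higher and 28.6% lower over all tested genes. Tyms, which encodes thymidylate synthase and is by far the most abundant of the cell cycle genes, was at 630.41 and 810.49 TPM in running libraries and 1059.88 and 1128.11 TPM in sedentary libraries. Its log2 difference was -0.61 as fitted and -0.0339 with the covariate. In the input of day 27 Tyms lay the other way, at 943.83 and 899.82 TPM in running libraries and 671.52 and 465.18 TPM in sedentary libraries. The olfactory receptor level has the same order in both fractions, and its part in the Tyms values was not tested. Cdk1, the kinase of mitotic entry, was at 2.72 TPM in both running libraries and 4.88 and 3.58 TPM in sedentary libraries. Signalling genes of the Notch, Wnt, BMP and hedgehog pathways had 6 higher and 25 lower of 59, but among the 23 members at 20 TPM or more the counts were 5 and 6, and the median was -0.20 as fitted and 0.07 with the covariate. Id4, an inhibitor of differentiation that acts in quiescent stem cells, was at 109.36 and 120.22 TPM in running libraries and 170.97 and 145.87 TPM in sedentary libraries. Of 36 extracellular matrix genes, 6 were higher and 14 lower, with a median of -0.27 as fitted and -0.0417 with the covariate. Thbs4, a thrombospondin, was at 14.06 and 20.09 TPM in running libraries and 30.46 and 30.96 TPM in sedentary libraries, and Ncan, a proteoglycan, was at 191.6 and 177.13 TPM in running libraries and 135.98 and 129.98 TPM in sedentary libraries.

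Vessel genes were also lower. Of 23 endothelial and mural cell genes, 18 were lower and none higher, with a median of -0.43, which was -0.34 with the covariate and ran from -0.55 to -0.31 when each library was left out. The share lower was 78.3%, next to 28.6% of all tested genes. Most of them were at low levels, with 2 of 23 at 20 TPM or more, and low genes leaned lower in general. Of the 21 members under 20 TPM, 16 were lower. Of all genes between 5 and 20 TPM, 33.4% were lower (median -0.15), and of those between 1 and 5 TPM 47.8% (median -0.41). How much of the list's difference goes with its level was not tested. The list summed to 171.2 to 171.6 TPM in running libraries and 234.4 to 271.4 TPM in sedentary libraries, and in the input of day 27 to 213.6 to 221.2 TPM in running libraries and 213.7 to 230.8 TPM in sedentary libraries. Pdgfrb, the pericyte receptor, was at 13.41 and 11.97 TPM in running libraries and 20.44 and 20.32 TPM in sedentary libraries. Vtn, which encodes vitronectin, was at 16.06 and 13.88 TPM in running libraries and 26.07 and 21.24 TPM in sedentary libraries.

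Markers of other cells that an IP could carry over are given next to the 28.6% of all tested genes that were lower. Oligodendrocyte genes had 1 higher and 9 lower of 18 (50% lower), but their sums overlapped, at 970.5 to 1333 TPM in running libraries and 1276 to 1300 TPM in sedentary libraries. Oligodendrocyte precursor genes had 2 higher and 7 lower of 16 (43.8% lower, median -0.26 as fitted and -0.0426 with the covariate) and summed to 389.2 to 456.8 TPM in running libraries and 487.4 to 504.8 TPM in sedentary libraries. Microglia and macrophage genes had 2 higher and 6 lower of 22 (27.3% lower, close to all genes) and summed to 167 to 229.2 TPM in running libraries and 229.1 to 239.8 TPM in sedentary libraries. Meningeal and fibroblast genes had 1 higher and 6 lower of 14 (42.9% lower, median -0.40 as fitted and -0.75 with the covariate). They summed to 164 to 178.8 TPM in running libraries and 225.9 to 337.5 TPM in sedentary libraries. In the input of day 27 their sums lay the same way, at 465.6 to 569.7 TPM in running libraries and 698.2 to 1064 TPM in sedentary libraries. Interneuron genes had 4 higher and 8 lower of 20 (40% lower), with a median of -0.31 as fitted and -0.12 with the covariate. Genes of CA pyramidal and mossy cells had 2 higher and 9 lower of 25 (36% lower), with a median of -0.18 as fitted and -0.0132 with the covariate. Choroid plexus and ependymal genes had none higher and 4 lower of 14, which is the 28.6% of all genes. The interneuron genes summed to 613.3 to 716.1 TPM in running libraries and 587.9 to 604.3 TPM in sedentary libraries. Of the 9 members at 20 TPM or more, 4 were higher and 1 lower, and of the 11 under 20 TPM none were higher and 7 lower. Gad1 of that list, which makes GABA, was at 122.34 and 133.68 TPM in running libraries and 93.81 and 90.3 TPM in sedentary libraries. Erbb4 lay the other way, at 9.98 and 16.57 TPM in running libraries and 17.12 and 22.64 TPM in sedentary libraries. So did Lhx6, at 3.48 and 4.88 TPM in running libraries and 6.33 and 8.09 TPM in sedentary libraries. Defining markers were above 0 in all these lists, and only the neutrophil gene S100a8 of the blood list was listed at 0 in all 4 libraries. The part of these cells in the differences was not tested.

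**Figure D4:**
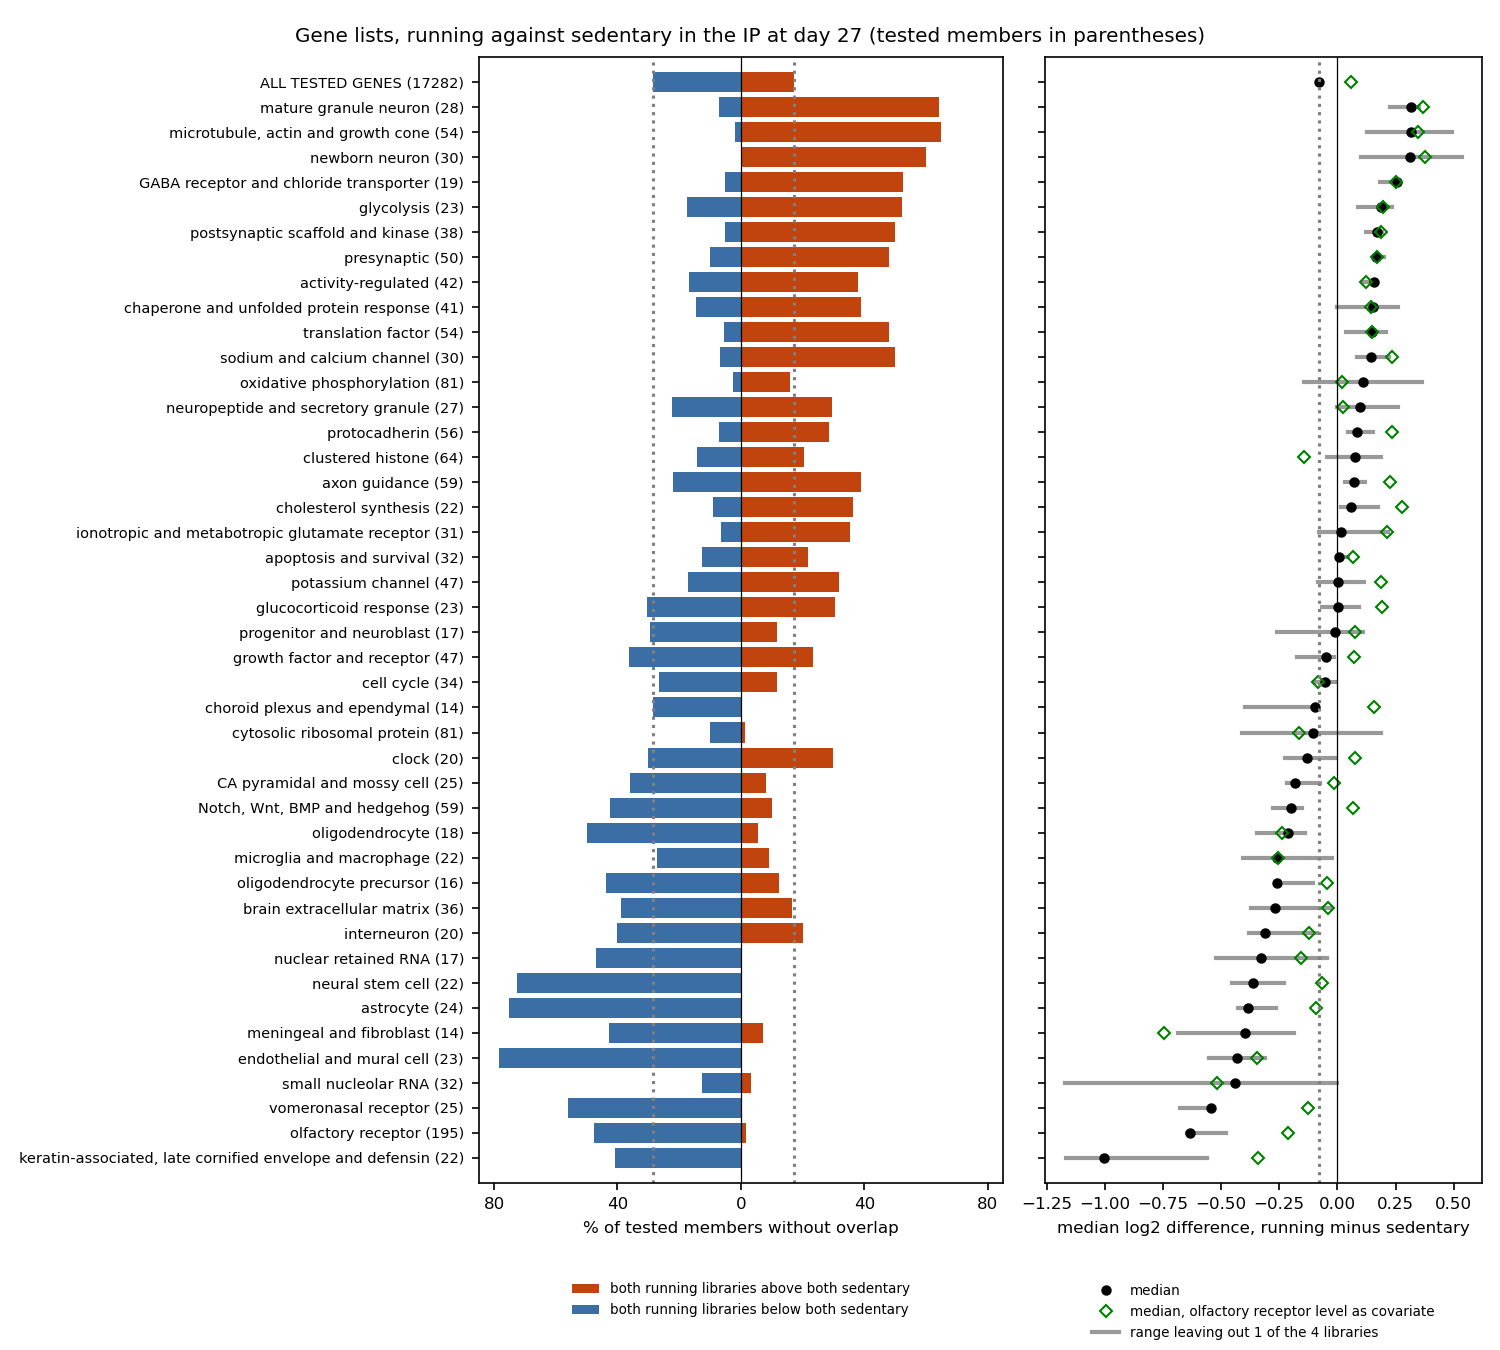
Share of tested members (%) of each gene list with both running IP libraries above (right) or below (left) both sedentary IP libraries of day 27, and the median log2 difference with its value under the olfactory receptor covariate and its range when 1 of the 4 libraries is left out. Dotted lines mark all tested genes (17.3% higher, 28.6% lower, median -0.08), and the mature granule neuron, cytoskeleton and newborn neuron lists have the highest medians among the lists.

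Genes of protein and energy metabolism differed between the running libraries themselves. All genes at 20 TPM or more, the level of most of these genes, had 29.2% higher and 15.5% lower. Of 54 translation factor genes, 26 were higher and 3 lower, with a median of 0.15 that was 0.04 without running library e. Eef1a2, the elongation factor of mature neurons, was at 787.96 and 634.78 TPM in running libraries and 537.04 and 458.82 TPM in sedentary libraries. Of 81 cytosolic ribosomal protein genes, 1 was higher and 8 were lower, and the median of -0.11 ran from -0.41 without running library e to 0.19 without running library f and was -0.17 with the covariate. Oxidative phosphorylation genes had 13 higher and 2 lower of 81, and their median of 0.11 was -0.14 without running library e and 0.0213 with the covariate. Summed, they stood at 9300 to 14320 TPM in the running libraries and 9716 to 10920 TPM in sedentary libraries, so the spread within the running group was wider than the distance between the groups. Of 23 glycolysis genes, 12 were higher and 4 lower, among them Pgk1 at 181.2 and 134.38 TPM in running libraries and 120.32 and 100.84 TPM in sedentary libraries. The astrocyte isoform Aldoc was on the lower side, at 571.86 and 535.39 TPM in running libraries and 866.41 and 668.37 TPM in sedentary libraries.

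Chaperones, sterols, stress hormones and the clock gave smaller or divided differences. The counts stand next to 17.3% higher and 28.6% lower over all tested genes, and 29.2% and 15.5% over genes at 20 TPM or more. Of 41 chaperone and unfolded protein response genes, 16 were higher and 6 lower (39% and 14.6%), and of the 32 at 20 TPM or more 13 and 2. Hsph1, a heat shock protein, was at 275.85 and 216.33 TPM in running libraries and 181.64 and 168.99 TPM in sedentary libraries. Of 22 cholesterol synthesis genes, 8 were higher and 2 lower (36.4% and 9.09%), and of the 13 at 20 TPM or more 5 were higher and none lower. Glucocorticoid response genes had 7 higher and 7 lower of 23. The metallothionein gene Mt1 was at 220.12 and 226.25 TPM in running libraries and 392.68 and 337.9 TPM in sedentary libraries, and Mt2 was at 60.68 and 58.38 TPM in running libraries and 109.99 and 96.86 TPM in sedentary libraries. Sgk1, a kinase induced by glucocorticoids, lay the other way, at 29.8 and 33.2 TPM in running libraries and 21.96 and 20.4 TPM in sedentary libraries. Clock genes had 6 higher and 6 lower of 20. Of 17 nuclear retained RNAs, 8 were lower (47.1%) and none higher, with Neat1 at 32.33 and 40.28 TPM in running libraries and 50.36 and 57.42 TPM in sedentary libraries. The sums of that list overlapped, at 31400 to 43210 TPM in running libraries and 38540 to 42290 TPM in sedentary libraries.

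Genes were also grouped by how the IP related to the input, where the direction depended on the level of the genes counted. Of all genes at 20 TPM or more, 29.2% were higher and 15.5% lower (median 0.04). Over all levels it was 17.3% and 28.6% (median -0.08), so the direction of all genes turned round with level too. How much of a class's shares goes with its level was not tested. Among genes at 20 TPM or more, 929 were at least 2-fold above the input over days 11 and 18, and of these 14% were higher and 24% lower in running libraries of day 27, with a median log2 difference of -0.10. Of the 173 genes at least 2-fold below the input, 45.7% were higher and 16.8% lower, with a median of 0.20. Over all levels this class was turned round: of 648 tested genes at least 2-fold below the input, 15.4% were higher and 41.5% lower, with a median of -0.35. The class at least 2-fold above the input had 11.6% higher and 27.8% lower over all levels (1412 genes, median -0.12). Genes that had gone up at least 1.5-fold from day 11 to day 18 in the IP were 36.4% higher and 29% lower (217 genes), and those that had gone down at least 1.5-fold were 11.5% higher and 20.8% lower (130 genes), both at 20 TPM or more. Over all levels, those that had gone up were 14.8% higher and 34.5% lower (800 genes), again the other way round, and those that had gone down were 9.81% higher and 26.6% lower (316 genes). Dcx and Vim, which are both above the input, lay on opposite sides, with Dcx higher and Vim lower in running libraries.

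The earlier days, measured in separate libraries, were compared gene by gene. At day 11, 6.77% of the same genes were higher and 22.5% lower in running libraries, and at day 18 it was 21.5% and 23.8%. Of the 2995 genes higher at day 27, 43.4% were also higher at day 18 and 3.71% at day 11, and these are 34.9% and 9.49% of the genes higher on those days. Of the 4936 genes lower at day 27, 28.2% were also lower at day 18 and 18.5% at day 11, which are 33.9% and 23.5% of the genes lower then. At all 3 days, 58 of the 17282 tested genes were higher and 446 lower without overlap. At day 27 alone the shares were 17.3% and 28.6%. How many genes would repeat if the days were unrelated was not tested. Gfap and Mbp were among the 446. Bdnf and Calb2 were among the 58, with Bdnf at 27.23 and 24.77 TPM in running libraries and 20.84 and 23.18 TPM in sedentary libraries at day 11, and at 39.64 and 33.19 TPM in running libraries and 19.7 and 26.43 TPM in sedentary libraries at day 18.

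The lists differed in their course. Over all tested genes the median log2 difference was -0.11 at day 11, -0.01 at day 18 and -0.08 at day 27. Over genes at 20 TPM or more it was -0.14, 0.02 and 0.04. Newborn neuron genes had a median log2 difference of -0.05 at day 11, 0.64 at day 18 and 0.31 at day 27, with 1, 27 and 18 of 30 genes higher without overlap. Of the 18 higher at day 27, 17 were also higher at day 18. Mature granule neuron genes stood at -0.14 at day 11, -0.01 at day 18 and 0.32 at day 27, and sodium and calcium channel genes at -0.22, -0.06 and 0.14 (0.24 at day 27 with the covariate). Stem cell genes stood at -0.33, -0.28 and -0.36, and astrocyte genes at -0.35, -0.32 and -0.38, so that both medians were below 0 at each day. Endothelial and mural genes were at 0.09, -0.17 and -0.43. Olfactory receptor genes were at 0.32, 0.00 and -0.64, which is the widest swing of the lists drawn. No test was made on a list.

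**Figure D5:**
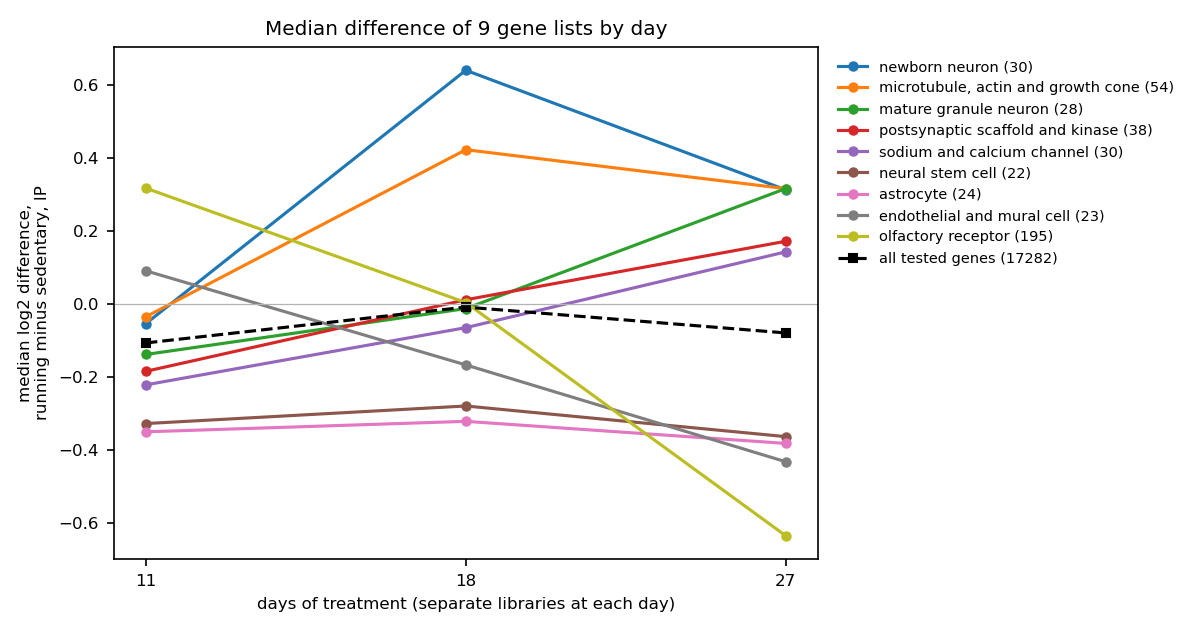
Median log2 difference, running minus sedentary, of 9 gene lists and of all tested genes in the IP at days 11, 18 and 27 (tested members in parentheses, 2 libraries per group and day). Newborn neuron genes are highest at day 18 (0.64), mature granule neuron genes at day 27 (0.32), and stem cell and astrocyte genes lie below -0.2 at all 3 days.

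A test of the running difference at day 27 minus the mean of days 11 and 18 called 5 of 17282 genes (0.0289%). They were Mir326 and Rps19-ps3, with a more positive difference at day 27, and Snora16a, Dynlt1c and Ly6i, with a more negative one. Next by unadjusted p were, on the more positive side, Dynlt1b, the mitochondrial leucyl-tRNA synthetase gene Lars2, Gad1 and Ndnl2, and on the more negative side Syce3 and Six3os1, with limma adjusted p from 0.189 to 0.440. Lars2 was at 3101.03 and 2790.79 TPM in running libraries and 2166.39 and 2349.8 TPM in sedentary libraries at day 27, while its log2 difference had been -1.64 at day 11 and -0.55 at day 18. Ndnl2 was at 53.86 and 65.29 TPM in running libraries and 38.78 and 34.56 TPM in sedentary libraries.

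A test of the running difference in the IP minus that in the input at day 27 called 2 of 19507 genes (0.0103%), Ly6i and the gene model 1700007L15Rik, both with a more negative difference in the IP. For Ly6i the log2 difference was -2.34 in the IP and 0.87 in the input. Hist1h4b, a histone H4 copy whose reads other copies may share, was at 5.04 and 11.89 TPM in running IP libraries and 30.08 and 40.82 TPM in sedentary IP libraries, with a log2 difference of 1.32 in the input (limma adjusted p of the difference between fractions = 0.0502). Syce3, a protein of the meiotic synaptonemal complex, was at 2.9 and 1.67 TPM in running IP libraries and 9.07 and 11.2 TPM in sedentary IP libraries, with a log2 difference of 2.96 in the input (limma adjusted p = 0.0502). On the other side, Fam216a, Gpn3, Cacnb1, Jazf1 and Sv2a had more positive differences in the IP by 0.77, 0.94, 0.69, 0.78 and 0.63 on the log2 scale, with limma adjusted p from 0.214 to 0.250.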

How the data were processed

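RNA from the IP and the input was sequenced from SMARTer Stranded Total RNA-Seq Kit v2 libraries, per the labels' protocols. The authors deposited 1 table of TPM for 23306 genes in 24 libraries; TPM keep no depth, which is unknown, so no counting interval was computed. RSEM and the build mm10 are named, per the submitters' processing notes; for the aligner, annotation and strand setting, the sources used here give nothing, and overlapping or near-identical genes are uncertain. In 27 gene names a symbol had become a date.

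Genes averaging at least 1 TPM over a fit's libraries were tested on log2(TPM + 1) with limma 3.58.1 (R 4.3.3; eBayes, trended and robust), and differences on that scale understate low genes. Adjustment was by Benjamini-Hochberg, two-sided, at 0.05. The main fit held the 12 IP libraries with group means; the input fit held 12 and the comparison of fractions 24. The fits were tested on simulated data. No overlap means both running libraries above, or below, both sedentary ones. The comparison and the 44 gene lists were chosen with earlier results of these data known. Named genes were the 12 of lowest unadjusted p in each direction, without overlap and averaging at least 5 TPM in the higher group (the rule where fewer than 5 genes pass adjustment); up to 4 members of each list by unadjusted p; up to 5 genes each way by the first rule for the differences between days and between fractions; and Rpl22, Dcx, Prox1, Neurod1, Calb1, Calb2, Gfap, Mbp, Bdnf, Xist and Snora16a. Gabra3, the copies and host genes, and called gene models and microRNAs were named after their values were seen. Positions are from GENCODE M21 (GRCm38). Alternatives varied the pseudocount, filter, scaling, covariate, block and libraries. Some genes that these rules select are not reported here.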

Additional observations from a re-analysis of the deposited data

Results flagged for a closer look

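In 5 genes the running difference at day 27 in the IP departed from the mean of days 11 and 18 by limma at an adjusted p under 0.05. The departure, as a log2 difference, was 3.61 for Mir326, 1.59 for Rps19-ps3, -2.84 for Snora16a, -3.29 for Dynlt1c and -3.21 for Ly6i. Rps19-ps3 was at 33.53 and 48 TPM in running libraries and 21.67 and 23.35 TPM in sedentary libraries at day 27, and at days 11 and 18 every running library lay below every sedentary library (15.11 to 21.45 against 26.37 to 34.83 TPM). Dynlt1c was at 28.72 to 62.95 TPM in the running libraries of days 11 and 18, against 5.7 and 7.39 TPM in those of day 27, and the sum over its copies overlapped between the groups at day 27. In 2 genes the running difference in the IP departed from that in the input at day 27, by -3.63 for 1700007L15Rik and -3.205 for Ly6i. Ly6i was at 0.95 TPM in running IP library e, listed at 0 in running IP library f, and at 5.6 and 6.55 TPM in the sedentary IP libraries, against 6.03 and 6.66 TPM in running input libraries and 2.62 and 3.47 TPM in sedentary input libraries. 1700007L15Rik was at 0.56 TPM in running IP library e, listed at 0 in running IP library f and at 3.97 and 5.63 TPM in sedentary IP libraries, against 3.29 and 3.93 TPM in running input libraries and 0.44 and 1.02 TPM in sedentary input libraries. The olfactory receptor level had the same pattern across these 8 libraries, and its part in the result was not tested for these genes.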

How the results depend on the processing

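Calls were few and rested on 2 libraries per group. At day 27 in the IP, 1 gene was called higher and 4 lower. The counts were 0 and 1 with a pseudocount of 0.5, 0 and 2 with a filter at a mean of 5 TPM, 0 and 0 in the 4 IP libraries of day 27 alone and in all 24 libraries; 2 were called lower under median-of-ratios scaling, rescaling without the most abundant noncoding RNAs and the olfactory receptor covariate. Leaving out 1 of the 4 libraries gave 0 to 3 genes higher and 1 to 15 lower; the highs came without sedentary library f (3 higher) and without running library e (15 lower). Genes without overlap ranged from 4524 to 5860 higher and from 6415 to 8763 lower when 1 library was left out, which makes separation easier by construction, and 2800 were lower with the filter at 5 TPM, where fewer genes were tested.

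The library letters are shared across groups, but same-lettered IP libraries correlated in their deviations at 0.24, 0.05 and 0.07 at days 11, 18 and 27, so they were not treated as pairs. With the letter as a replicate block, 4 genes were called higher and 43 lower at day 27, 55 for the difference between days and 1 for the difference between fractions. The difference between days had 5 calls, 3 under median-of-ratios scaling and 1 to 9 without 1 library (1 without running f or sedentary e, 9 without running e). The input had no call, and 0 to 1 without 1 library. The difference between fractions had 2 calls, 0 with a pseudocount of 5 or median-of-ratios scaling, and 0 to 2 without 1 library. The cause of these shifts was not tested.

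Of 787 values of 50 named genes under alternatives, 732 kept their side of the threshold and direction and 9 changed sign: the Rpl22 log2 difference (0.0525 with median-of-ratios scaling, and -0.22 to 0.18 without 1 library), the Dynlt1f log2 difference (-0.0075 with the covariate, and -0.20 to 0.25 without 1 library), the Xist log2 difference (-0.70 to 0.0197) and the Dynlt1a log2 difference (-0.75 to 0.39). None of these was called.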

Other observations

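Protocadherins, surface proteins whose many variants give a neuron its identity, were not described above. Of 56 tested members, 16 were higher and 4 lower without overlap in the running IP libraries of day 27, with a median log2 difference of 0.09. These are 28.6% and 7.14%, next to 17.3% higher and 28.6% lower over all tested genes. Pcdhgc5 was at 99.77 and 102.32 TPM in running libraries and 77.16 and 57.08 TPM in sedentary libraries. The clustered genes share exons, so how reads were divided among them is uncertain.

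Among neuropeptide genes, 8 were higher and 6 lower of 27 (29.6% and 22.2%, next to 17.3% and 28.6% of all tested genes). Penk, the enkephalin precursor, was at 30.19 and 21.77 TPM in running libraries and 19.61 and 12.81 TPM in sedentary libraries. In the input of day 27 Penk was higher in running libraries too, at 120.26 and 106.59 TPM against 66.08 and 69.22 TPM in sedentary libraries. Pcsk2, an enzyme that cleaves prohormones, was at 78.07 and 74.19 TPM in running libraries and 61.24 and 55.17 TPM in sedentary libraries. Apoptosis and survival genes had 7 higher and 4 lower of 32 (21.9% and 12.5%). At 20 TPM or more 5 of 17 were higher, close to the 29.2% of all genes of that level. Clustered histone genes had 13 higher and 9 lower of 64 (20.3% and 14.1%). Of 32 small nucleolar RNAs tested, 1 was higher and 4 were lower (3.12% and 12.5%, both below the shares of all tested genes). Scarna6 was among the lower ones, at 5.53 and 9.55 TPM in running libraries and 28.11 and 18.4 TPM in sedentary libraries.

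Vomeronasal receptor genes had none higher and 14 lower of 25, and keratin-associated, late cornified envelope and defensin genes none higher and 9 lower of 22, with medians of -0.54 and -1.004 in the IP, against 0.54 and 0.74 in the input of day 27. The shares lower were 56% and 40.9%, next to 28.6% of all tested genes and 47.8% of all genes between 1 and 5 TPM.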
